A study of Mus musculus with 6 samples.

Results

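The mitochondrial protein import genes of the nuclear genome were followed in neural stem cells (NSCs) with 1 mutant copy of Setd5 and in wild-type (WT) cells. Members were chosen by symbol: each gene of the deposited table named Tomm or Timm plus a digit, and Timmdc1, Pam16, Dnajc15, Dnajc19, Grpel1, Grpel2, Chchd4, Gfer, Pmpca and Pmpcb. Names ending in -ps, which mark pseudogenes, were left out. This gave 36 of the 53110 genes listed, by a rule on symbols that uses no measured value, though it was written with earlier results of these data known.

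Primary NSCs of the embryonic mouse cortex were grown attached to Matrigel, with bFGF and EGF, in an incubator at 21% oxygen, and profiled by RNA-seq of both ends of each fragment. Both groups shared this medium and oxygen level, and differed by genotype: WT, and Setd5+/-, in which CRISPR-Cas9 had been used to mutate 1 allele of Setd5, a gene for a chromatin protein with a SET domain. The comparison asks which genes change in level in ambient oxygen when 1 allele is lost. The labels list 3 samples per genotype, and the headers of the 3 mutant columns carry the name of 1 clone. The headers of a genotype also share their index sequence and lane label, and both differ between the genotypes.

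The 3 samples of a genotype differed by about the sampling noise of read pairs. Both ends of a pair were counted in most cases, since 73.9% to 76.5% of the values between 1 and 10 reads were even in each sample, so reads were divided by 2 for this comparison. Over genes, chi-square values divided by their degrees of freedom ran from 0.958 to 0.981 for the 6 comparisons of samples of the same genotype, against 31.7 to 31.9 for the 9 comparisons of WT with Setd5+/- samples. Taken as single reads, the same values were 1.904 to 1.955 and 58.0 to 58.3. The 3 samples of each genotype were therefore counted as parts of 1 library, so n = 1 library per genotype, and no SD or test between genotypes is given. Genotype, clone, library and lane cannot be told apart in this design. Each WT sample held 9995980 to 10004948 reads on genes and each Setd5+/- sample 7143309 to 7146147.

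Values are normalized counts, which are reads on a gene divided by a size factor of the sample, with 1 read worth 0.827 to 0.829 in WT and 1.19 in Setd5+/-. A log2 fold change is that of the mean normalized count + 1 in Setd5+/- over WT. Its 95% counting interval covers the error of counting reads and nothing else. A gene is called past 1.5-fold when its mean differed by at least that factor and the interval left out 0. Setd5 itself read 2498, 2749 and 2780 normalized counts in WT and 2151, 1990 and 2055 in Setd5+/-, a log2 fold change of −0.37 (−0.44 to −0.31). The 10 neural stem cell markers, among them Nes, Sox2 and Pax6, were all at 10 or more normalized counts in both genotypes, with a summed level of 76768 to 76939 in the WT samples and 61438 to 62285 in Setd5+/-. Fabp7, at means of 36015 and 11490, sets that direction, and the sum of the other 9 was 40707 to 40933 and 49870 to 50902, with Notch1 and Vim higher and Hes1 lower past 1.5-fold. The 6 mesenchymal markers all had means under 10 in both genotypes, though Col1a1 read 11.6 in the first WT sample and 14.3 in the first Setd5+/- sample. Markers of other cells moved with genotype too. The summed level of 7 neuronal markers was 383 to 415 in the WT samples and 81.0 to 90.5 in Setd5+/-, with the means of Neurod1 and Neurod2 under 1 in both. For 7 oligodendrocyte lineage markers the summed level was 40199 to 41066 and 22248 to 23073. The sums were 2412 to 2490 and 2722 to 2902 for 5 astrocyte markers, and 78.6 to 118.6 and 48.9 to 70.3 for 4 microglial ones, of which Cx3cr1 was under 1 in both. Their part in the levels of the import genes was not tested, and in bulk RNA fewer cells of a type and less RNA per cell cannot be told apart.

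Nearly all mitochondrial proteins are made on cytosolic ribosomes and pass the outer membrane through the TOM complex. From there, precursors with a cleavable N-terminal signal cross the inner membrane through the TIM23 complex, pulled by the PAM motor, and the matrix protease MPP removes the signal. Carrier proteins without that signal are handed by the small TIM chaperones of the intermembrane space to the TIM22 complex, and the MIA pathway folds small cysteine-rich proteins, the small TIMs among them, by oxidation.

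Since many genes of mitochondrial function have promoters with matches for ETS family factors such as GABP or for NRF1, the promoters were read from RefSeq (GRCm38.p6) as the 250 bases before and 50 after each start site. Of the 36 members, 32 had a promoter there, all but Tomm40l, Tomm7, Grpel2 and Timm21. The letters CCGGAAG, a form of ETS site taken for GABP, were searched on both strands, and other forms of ETS site were not. They were present in the promoters of 13 of these 32 (40.6%), against 9.93% of 27025 genes with a promoter and 19.7% of the 10199 tested genes matched by symbol. The longer NRF1 motif was in 0 of the 32 and in 1.07% of the 27025. Shown here are the 120 bases before the start site, 5′ to 3′ on the gene's strand, for 3 small TIM genes with lower levels in Setd5+/-, with CCGGAAG or its reverse complement in capitals. The Timm10 stretch lies at chr2:84826901-84827020 on the plus strand, that of Timm8b at chr9:50603781-50603900 on the plus strand and that of Timm9 at chr12:71136676-71136795 on the minus strand.
Timm10: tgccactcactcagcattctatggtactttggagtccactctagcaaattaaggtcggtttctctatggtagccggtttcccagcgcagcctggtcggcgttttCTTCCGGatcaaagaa
Timm8b: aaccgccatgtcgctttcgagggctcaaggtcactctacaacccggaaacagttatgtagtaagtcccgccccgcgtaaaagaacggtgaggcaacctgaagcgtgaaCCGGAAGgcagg
Timm9: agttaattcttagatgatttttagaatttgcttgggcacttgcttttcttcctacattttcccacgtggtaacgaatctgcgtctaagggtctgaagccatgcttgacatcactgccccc
The match shown began 16 bases before the start site in Timm10, whose promoter held 3 in all. The other 2, at 13 and 16 bases after the start, overlap and are 1 stretch read on both strands. In Timm8b the only match began 12 bases before the start site, and the whole Timm9 promoter held none. The RefSeq start sites differ from the GENCODE gene bounds printed below, so the Timm10 match shown lies inside its GENCODE gene span. The end of the Timm9 stretch nearest the start site does so too. A match describes letters only. Among the tested members, the median log2 fold change was −0.35 for the 12 with a match and −0.15 for the 17 without one, and 4 and 5 of them, respectively, were lower past 1.5-fold. Over the 10199 tested genes matched by symbol, the median was −0.08 for those with a match and −0.005 for those without. Of these genes, 11.9% with a match and 15.5% without were lower past 1.5-fold.

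Of the 36 import genes, 33 had a mean of at least 10 normalized counts over the 6 samples and were tested, as were 16266 genes in all. The 3 under that level were Tomm20l, with 6 reads in WT and 5 in Setd5+/-, Timm8a1, with 6 and 2, and Timm8a2, with 5 and 0, all paralogs of genes with higher levels. Among the 33, the median log2 fold change was −0.25, from −1.16 for Timm9 to 0.48 for Timm17a, and the median of all genes tested was −0.02. Past 1.5-fold, 9 import genes were lower (27.3%) and 0 higher, where 14.7% of all genes tested were lower, 18.8% higher and 33.6% one or the other. The interval lay below 0 in 19 import genes (57.6%, against 32.8% of all genes) and above 0 in 2 (6.06%, against 32.6%), and it spanned 0 in 12, while 65.4% of all genes had an interval without 0. All Setd5+/- values were below all WT values in 18 import genes (54.5%), as in 32.9% of all genes, and above them in 2, as in 32.4%. These shares describe the list beside the table as a whole and carry no test.

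**Figure D1:**
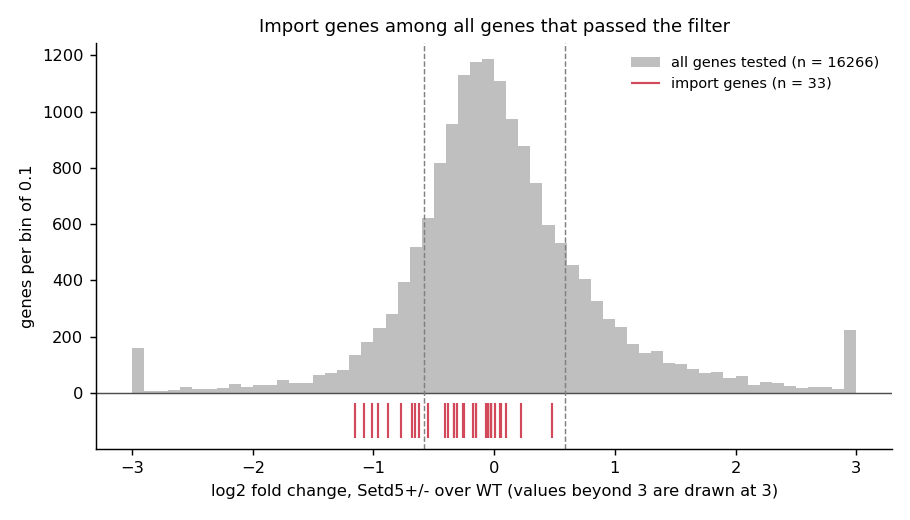
Histogram of the log2 fold change of the 16266 genes tested (grey, number of genes per bin on the y axis), with 1 red line below it for each of the 33 import genes; dashed lines mark 1.5-fold and values beyond 3 are drawn at 3. The import genes run from −1.16 to 0.48, with a median of −0.25, and 0 of them pass the upper dashed line.

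**Figure D2:**
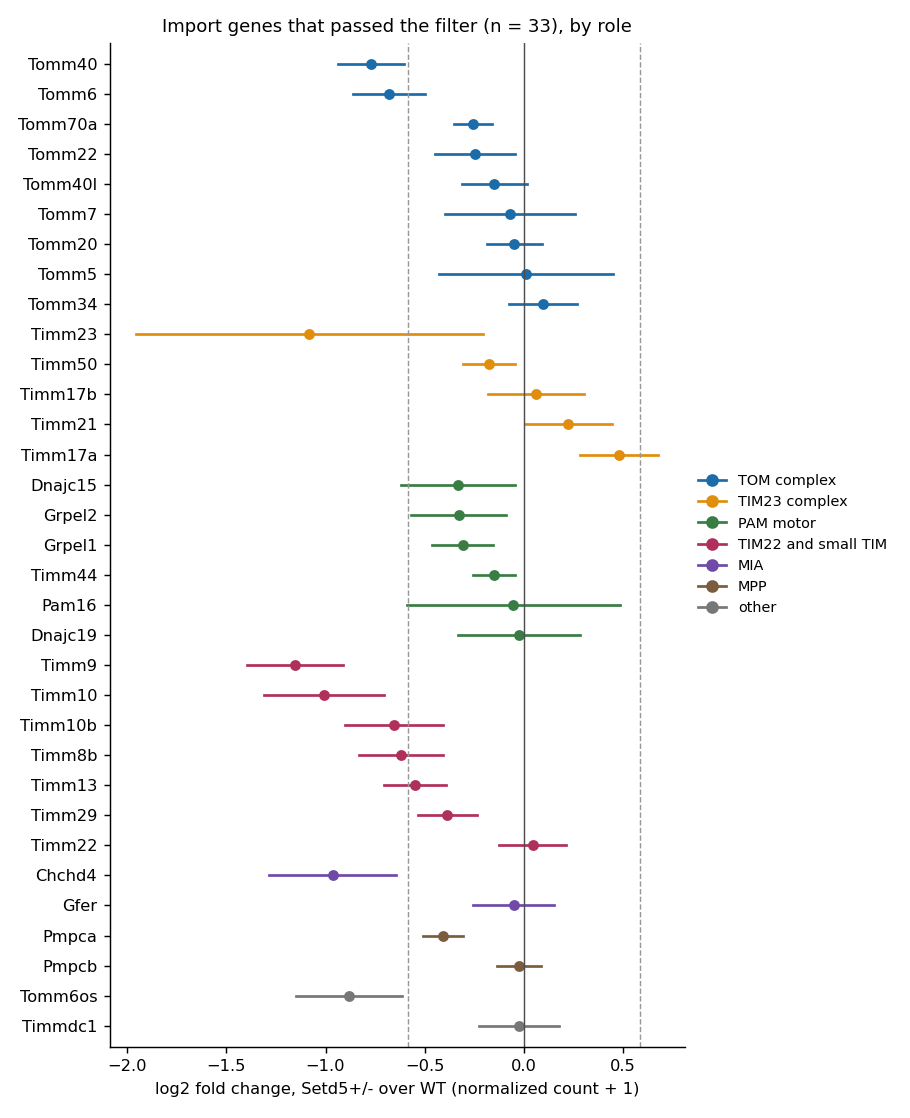
Log2 fold change of Setd5+/- over WT (x axis) for the 33 import genes tested, ordered within their role; points are the 1 library of each genotype compared, bars are 95% counting intervals and dashed lines mark 1.5-fold. The 5 small TIM genes sit at −0.55 or lower, while the PAM motor genes lie between −0.33 and −0.03.

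The small TIM chaperones and the TIM22 complex were the group with the lowest median, −0.62 over 7 genes tested. All 5 small TIM genes tested had intervals below 0, with a median of −0.65, and 4 of the 5 were lower past 1.5-fold, beside 14.7% of all genes. Timm9 and Timm10, whose products form the hexamer that carries hydrophobic precursors across the intermembrane space, had the lowest values of the 5. Timm9 (chr12:71123173-71136684, minus strand, GRCm38) read 286, 294 and 335 normalized counts in WT and 157, 132 and 119 in Setd5+/-. Every Setd5+/- value lay below every WT value, and the log2 fold change was −1.16 (−1.40 to −0.91), or 2.23-fold lower. Timm10 (chr2:84826997-84830213, plus strand) read 189, 171 and 179.7 in WT and 93.0, 109.6 and 64.3 in Setd5+/-. The groups did not overlap there either, the third Setd5+/- sample was the lowest, and the log2 fold change was −1.01 (−1.31 to −0.71).

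Timm10b, which docks that hexamer on the TIM22 complex, and Timm8b, which pairs with Timm13 in a second hexamer, were nearer to the threshold. Timm10b (chr7:105640056-105643637, plus strand) read 226, 236 and 208 normalized counts in WT and 136, 145 and 143 in Setd5+/-, without overlap. Its log2 fold change was −0.65 (−0.90 to −0.41), and its exons share 376 bases with Gm45799 on the same strand and 277 with Arfip2 on the other, whose log2 fold changes were −0.21 and 0.00. Timm8b (chr9:50603910-50605320, plus strand) read 333, 275 and 299.8 in WT and 223, 177 and 189 in Setd5+/-, again without overlap, for a log2 fold change of −0.62 (−0.83 to −0.41). It was inside 1.5-fold without the first WT sample, at −0.54, and without the second Setd5+/- sample, at −0.55. Timm13, its partner, was the first gene just outside the threshold, at −0.55 (−0.70 to −0.39), with 513 to 587 normalized counts in WT and 369 to 381 in Setd5+/-, and was past it without the second WT sample, at −0.59.

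The membrane part of the same pathway was less even. Timm22, the channel that inserts carriers, had 345 to 377 normalized counts in WT and 361 to 382 in Setd5+/-, which overlapped, and a log2 fold change of 0.04 (−0.12 to 0.21). Timm29, a subunit that links TIM22 to the outer membrane, was at −0.39 (−0.54 to −0.24). Summed over the 9 genes listed in the group, the level was 2350 to 2605 normalized counts in WT and 1651 to 1793 in Setd5+/-, a log2 difference of −0.51 (−0.59 to −0.44). This was the lowest of the 7 summed levels, and the interval of the next, for Timmdc1 with Tomm6os at −0.35 (−0.51 to −0.19), overlaps it.

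Timm8a1 is a case where the listed value says little. The table gives it 6 and 2 reads, while Gm9797, a transcribed pseudogene identical to it over 612 bases, had 48.1, 59.6 and 61.3 normalized counts in WT and 21.5, 28.6 and 28.6 in Setd5+/-. How such reads were shared between them is not given in the sources used here, so the pair is read together, at −1.07 (−1.61 to −0.54).

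**Figure D3:**
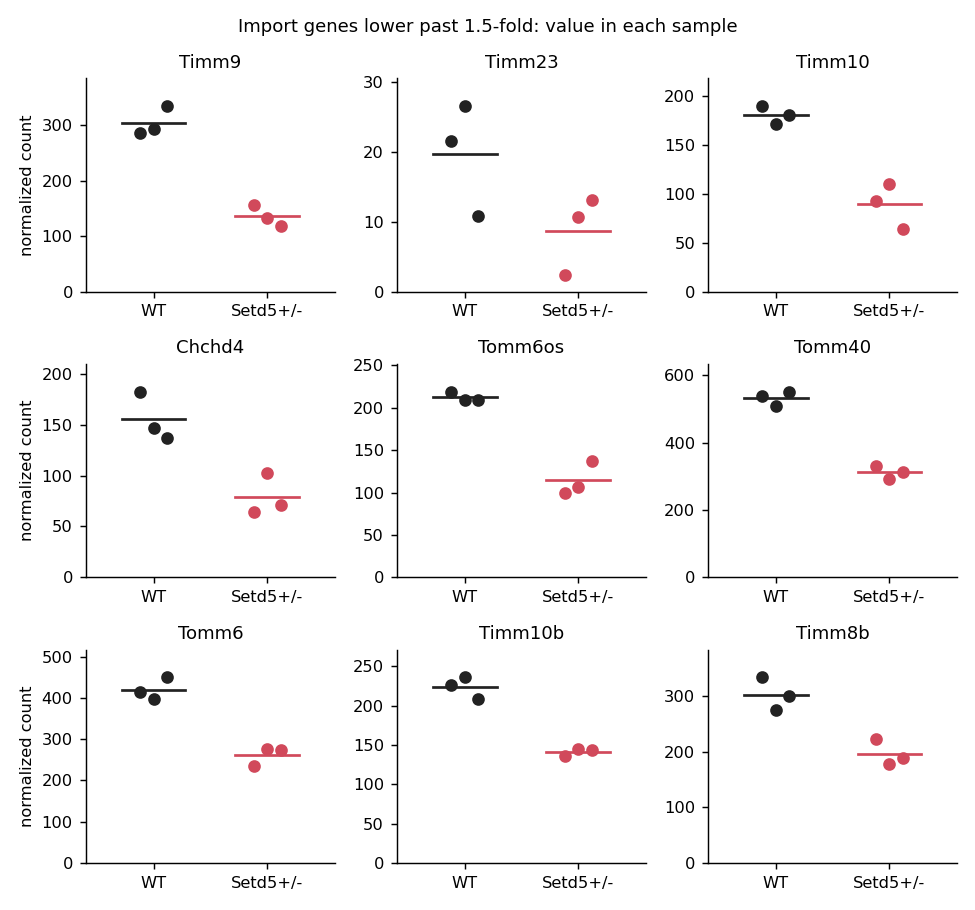
Normalized counts (y axis, from 0) of the 9 import genes lower past 1.5-fold, 1 panel per gene; points are the 3 samples of each genotype, which are parts of 1 library, and lines are their means. In 8 panels every Setd5+/- point lies below every WT point, and in the Timm23 panel they overlap.

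In the MIA pathway, the 2 members differed. Chchd4, the mammalian MIA40 oxidoreductase that traps small TIMs and other cysteine-rich proteins in the intermembrane space (chr6:91462172-91473546, minus strand), read 182, 147 and 137 normalized counts in WT and 64.4, 102.4 and 71.5 in Setd5+/-. The groups did not overlap, and the log2 fold change was −0.96 (−1.28 to −0.64), or 1.95-fold lower. Gfer, the sulfhydryl oxidase that keeps Chchd4 oxidised, was at −0.05 (−0.25 to 0.15), with 213 to 311 in WT and 231 to 269 in Setd5+/-. A pseudogene 91.5% identical to Chchd4 over 413 bases, Gm5318, had 18 and 8 reads, and adding them left the Chchd4 value at −0.95.

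The TOM group, which takes in Tomm40l and Tomm34, had a median of −0.15 over 9 genes tested. Past 1.5-fold, 2 were lower (22.2%, against 14.7% of all genes) and 0 higher. The 7 core subunits, Tomm20, Tomm22, Tomm40, Tomm5, Tomm6, Tomm7 and Tomm70a, had a median of −0.25, with 2 lower (28.6%) and 0 higher. Tomm40, the beta-barrel pore of the complex (chr7:19701313-19715438, minus strand), read 539, 508 and 551 normalized counts in WT and 330.1, 293 and 312 in Setd5+/-. Its groups did not overlap, and the log2 fold change was −0.77 (−0.94 to −0.60), or 1.71-fold lower. An antisense transcript, Gm20512, shares 258 exon bases with it and was at −0.67 (−0.97 to −0.36). The library kit does not mark strand, so reads of the shared stretch cannot be assigned to either. Tomm6, a small subunit that stabilises the complex (chr17:47686646-47688386, minus strand), read 414, 397 and 449.7 in WT and 236, 276 and 274 in Setd5+/-. These values did not overlap, and the log2 fold change was −0.68 (−0.86 to −0.50).

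Tomm6 cannot be read on its own at this locus. Of its 1131 exon bases, 859 belong also to Gm21981 on the same strand, which had similar values, with means of 451 in WT and 284 in Setd5+/- and a log2 fold change of −0.66 (−0.84 to −0.49). Tomm6os, an antisense transcript that the naming rule takes in although it codes for no subunit (chr17:47687610-47691083, plus strand), read 219, 209 and 209 in WT and 100.1, 107 and 137 in Setd5+/-. It was at −0.88 (−1.15 to −0.61) without overlap, and its exons share 219 bases with Tomm6, 958 with Gm21981 and 1221 with Prickle4, which was at −0.69 (−1.20 to −0.19). These 4 transcripts were all lower past 1.5-fold, and how much of each value comes from shared reads was not tested.

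The import receptors of the outer membrane differed by less than 1.5-fold. Tomm20, which recognises presequences, read 524, 556 and 565 normalized counts in WT and 515, 558.5 and 516 in Setd5+/-, with overlap and a log2 fold change of −0.05 (−0.19 to 0.09). Tomm22, the central receptor, was at −0.25 (−0.45 to −0.05) and Tomm70a, the receptor for carriers, at −0.26 (−0.35 to −0.16), so both intervals lay below 0 and neither passed 1.5-fold. For Tomm20 the reads of its copies matter: 10 pseudogenes at least 90% identical over 200 bases or more are annotated, and Gm14494, 99.5% identical over 435 bases, held 417 normalized counts in WT and 481 in Setd5+/-. With all listed copies added, Tomm20 was at 0.07 (−0.03 to 0.17). The small subunits Tomm5 and Tomm7 had wide intervals, 0.01 (−0.43 to 0.45) and −0.07 (−0.40 to 0.26), and Tomm34, a cytosolic co-chaperone despite its name, was at 0.10 (−0.08 to 0.27).

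Among TIM23 genes the values pointed both ways, with a median of 0.06 over 5. Timm23, a subunit of the presequence channel (chr14:32180162-32201898, minus strand), read 21.6, 26.5 and 10.8 normalized counts in WT and 2.38, 10.7 and 13.1 in Setd5+/-. These rest on 71 and 22 reads and overlap, and the log2 fold change was −1.08 (−1.96 to −0.21). Without the second WT sample it was −0.82 (−1.78 to 0.14) and without the first Setd5+/- sample −0.67 (−1.60 to 0.25), so the call rests on those samples. In all, 7 copies of Timm23 are annotated, of which Gm10233 and Gm10171 are 100% identical over 628 bases and Gm10273 99.9% over 1121. These 3 are listed at 0 reads in all samples. The Timm23 level of 10.97 normalized counts per kilobase of exon in WT was the lowest of the 33 members, against 244 for Timm50, the receptor of the same complex. How reads that match several copies were counted is not given in the sources used here.

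Timm50 was at −0.17 (−0.30 to −0.04). Timm21, which links TIM23 to TOM, was at 0.22, with an interval of 0.00 to 0.44 that lay above 0 by less than the rounding and spanned 0 with counts scaled to total reads or to the upper quartile. Timm17a, a channel subunit whose protein is turned over under stress (chr1:135295213-135313778, minus strand), read 198, 233 and 236 in WT and 322, 311 and 300.2 in Setd5+/-. Every Setd5+/- value lay above every WT value, for a log2 fold change of 0.48 (0.28 to 0.68), the highest of the 33. Of all 1044 genes tested on chromosome 1, 482 were higher past 1.5-fold and the median was 0.53, and Tomm40l, the other member there, was at −0.15. What the chromosome contributes to the Timm17a value was not tested. Gm7180, a pseudogene 96.3% identical to Timm17a over 516 bases, had 214 and 212 normalized counts, and with its reads added the value was 0.26 (0.11 to 0.41).

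The 6 PAM motor genes were all below 0, between −0.33 and −0.03, with a median of −0.23, and Dnajc19 alone of them changed sign when chromosome 1 was left out of the scaling. None passed 1.5-fold in the counts as deposited, where 14.7% of all genes were lower, and 4 intervals lay below 0. The summed level of the motor was 1964 to 2036 normalized counts in WT and 1684 to 1762 in Setd5+/-, a log2 difference of −0.21 (−0.29 to −0.14). Timm44, which tethers the motor to the channel, was at −0.15 (−0.26 to −0.05). Pam16, a J-like regulator, was at −0.05 (−0.59 to 0.48) on 127 and 85 reads. Gm9803, identical to Pam16 over 534 bases, had more reads than Pam16 itself, 416 and 386, and with them added the value was 0.32 (0.07 to 0.56).

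The 2 subunits of MPP, which work as a heterodimer, differed from each other. Pmpca, the alpha subunit that binds precursors, read 1239, 1238 and 1294 normalized counts in WT and 971, 925 and 943 in Setd5+/-. The groups did not overlap, at −0.41 (−0.51 to −0.31), while 874 of its exon bases are shared with Inpp5e on the other strand, which was at −0.26 (−0.41 to −0.12). Pmpcb, the catalytic beta subunit, read 876, 853 and 885 in WT and 834, 870.5 and 864 in Setd5+/-, with overlap, at −0.03 (−0.14 to 0.08). Timmdc1, which despite its name assembles respiratory complex I, was at −0.03 (−0.23 to 0.17).

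Paralogs and partners were compared by the share of the pair's reads on each, with exact binomial (Clopper-Pearson) 95% intervals on read pairs. Of the reads on Tomm40 and Tomm40l, Tomm40 took 56.2% (53.8 to 58.6) in WT and 45.5% (42.1 to 48.9) in Setd5+/-. Tomm40l, a second pore protein, read 427, 436 and 381 normalized counts in WT and 405, 375 and 341 in Setd5+/-, and the log2 fold changes of the pair differed by 0.62 (0.39 to 0.85). Tomm40l shares 3304 of its 5135 exon bases with Nr1i3 on the other strand, which was at −0.22 (−0.41 to −0.03) and whose reads cannot be told apart from it there. Timm17a took 56.3% (52.6 to 60.0) of the Timm17a and Timm17b reads in WT and 63.3% (59.5 to 67.2) in Setd5+/-. The intervals of the shares met at their ends, and the log2 fold change of Timm17b was below that of Timm17a (difference −0.42, −0.73 to −0.11). With the Gm7180 reads added to Timm17a the difference was −0.20 (−0.48 to 0.08), an interval that spans 0. Timm17b, on chromosome X, read 188, 181 and 148 in WT and 216, 152 and 171 in Setd5+/-, with overlap, at 0.06 (−0.18 to 0.30). Tomm40l and Timm17a lie on chromosome 1, where the median of all genes tested was 0.53, and their partners do not. What the chromosome contributes to these shares was not tested.

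For MPP the share of Pmpca was 59.1% (57.5 to 60.6) in WT and 52.5% (50.4 to 54.6) in Setd5+/-, and the log2 fold change of Pmpcb exceeded that of Pmpca by 0.38 (0.24 to 0.53). The nucleotide exchange factors of the motor kept their proportion within error: Grpel1 took 70.6% (68.0 to 73.1) and 70.9% (67.4 to 74.1), and the difference of their log2 fold changes was −0.02 (−0.30 to 0.26). Grpel1 read 508, 501 and 497 normalized counts in WT and 392, 425 and 398 in Setd5+/-, at −0.31 (−0.46 to −0.16). Grpel2 read 191, 214 and 223 in WT and 187, 170.3 and 142 in Setd5+/-, at −0.33 (−0.57 to −0.09). Both were lower in every Setd5+/- sample than in every WT sample, by less than 1.5-fold.

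The J proteins Dnajc15 and Dnajc19, which stimulate the motor's ATPase, could not be told apart in their change. Dnajc15 read 122, 155 and 151 normalized counts in WT and 98.9, 120.3 and 120.3 in Setd5+/-, at −0.33 (−0.62 to −0.04). Dnajc19 read 119, 96.0 and 112 in WT and 138, 89.3 and 92.9 in Setd5+/-, at −0.03 (−0.33 to 0.28), with overlap. The difference was 0.31 (−0.12 to 0.73). A near-identical copy, Dnajc19-ps, held 169 normalized counts in WT and 146 in Setd5+/-, more than Dnajc19 itself, and the value for both was −0.14 (−0.34 to 0.06). Against Tomm20l, Tomm20 took 99.7% of the reads in WT and 99.6% in Setd5+/-. Against Timm8a1, Timm8b took 99.5% and 99.6%, and with the Gm9797 reads added to Timm8a1 it took 83.9% (80.9 to 86.7) and 87.9% (83.6 to 91.5).

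**Figure D4:**
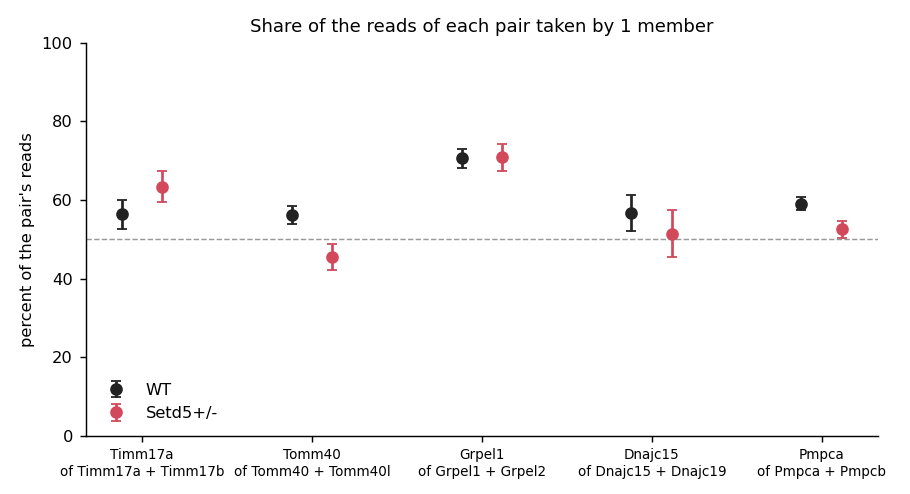
Percent of a pair's reads (y axis, 0 to 100) on the first named gene in WT (black) and Setd5+/- (red), with 95% binomial intervals of 1 library per genotype; the dashed line marks equal shares. Tomm40 goes from 56.2% to 45.5% and Pmpca from 59.1% to 52.5%, while Grpel1 stays near 70.6%.

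Levels between members were compared as normalized counts per kilobase of exon, on the GENCODE gene models. The order in WT was led by Timm8b at 584, Timm13 at 401, Tomm6 at 372, Pmpca at 294 and Timm44 at 272. In Setd5+/- the same 3 genes were not all in the same places: Timm8b was at 379 and Timm13 at 274, then Timm44 at 245 and Tomm6 at 232. Timm10 moved from rank 7 at 221 per kilobase to rank 15 at 109.1, and Tomm40 from rank 14 at 118 to rank 21 at 69.1. Since the aligner does not split reads over introns, genes with many short exons can be undercounted, and a level is then a lower estimate. Reads of an overlapping gene, as at Tomm6 and Pmpca, can instead raise a level. Reads on near-identical copies were not added here, and what either does to the order was not tested.

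The 15 tested members with no near-identical copy and with under 100 exon bases in another gene had a median of −0.15, and 3 of them (20%, against 14.7% of all genes) were lower past 1.5-fold: Timm9, Timm10 and Timm8b. Leaving out only the 12 members with such an overlap gave the same median of −0.15, and leaving out the 11 with a copy gave −0.28. Exon length went with the fold change over all genes, with medians of −0.08, −0.05, −0.01 and 0.08 over the 4 bins of equal size from the shortest to the longest genes. In the same order, the members had medians of −0.55 (9 genes), −0.10 (12), −0.28 (8) and −0.29 (4), with no steady order, and what length contributes to the values was not tested.

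Outside the naming rule, 21 other genes of mitochondrial protein import and folding, listed by function, were all tested and had a median of −0.30. Past 1.5-fold 5 were lower and 1 was higher, beside 14.7% and 18.8% of all genes, and the interval lay below 0 in 13 (61.9%, against 32.8% of all genes), above it in 3 (14.3%, against 32.6%) and spanned it in 5. Hspa9, the mitochondrial chaperone mortalin that drives the PAM motor, was the one higher gene. It read 1678, 1660 and 1511 normalized counts in WT and 2721, 2726 and 2615 in Setd5+/-, without overlap, at 0.73 (0.66 to 0.80). Dnlz, which keeps Hspa9 soluble, was opposite in sign, with 554, 568 and 566 in WT and 315, 337 and 345 in Setd5+/-, at −0.76 (−0.92 to −0.60).

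Of the sorting machinery for outer membrane beta-barrels, Samm50, its core, read 891, 889 and 994 normalized counts in WT and 546, 548 and 633 in Setd5+/-, at −0.68 (−0.81 to −0.56). Mtx2 read 349, 352 and 343 in WT and 181, 160 and 199 in Setd5+/-, at −0.95 (−1.16 to −0.73). Its partner Mtx1 was at 0.29 (0.13 to 0.45) and Mtx3 at −0.05 (−0.21 to 0.11), so the metaxins did not share a direction. Romo1, a small inner membrane protein associated with TIM23, read 114, 119.96 and 117 in WT and 51.2, 61.9 and 76.2 in Setd5+/-, at −0.88 (−1.24 to −0.52). Hspa8, the cytosolic chaperone that delivers precursors to the receptors, read 179.9, 164 and 169.8 in WT and 50.1, 52.4 and 35.7 in Setd5+/-, at −1.87 (−2.26 to −1.48), the largest fold of the 21. The groups of all these 4 lower genes did not overlap. Hsp90ab1 and Dnaja1, other cytosolic chaperones of precursors, were at −0.05 (−0.08 to −0.01) and −0.01 (−0.15 to 0.14). Per kilobase of exon in WT, Hspa8 stood at 39.8 normalized counts and Hsp90ab1 at 3655. Near-identical copies were sought for the import members only, so what copies of Hspa8 contribute to its value was not tested.

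**Figure D5:**
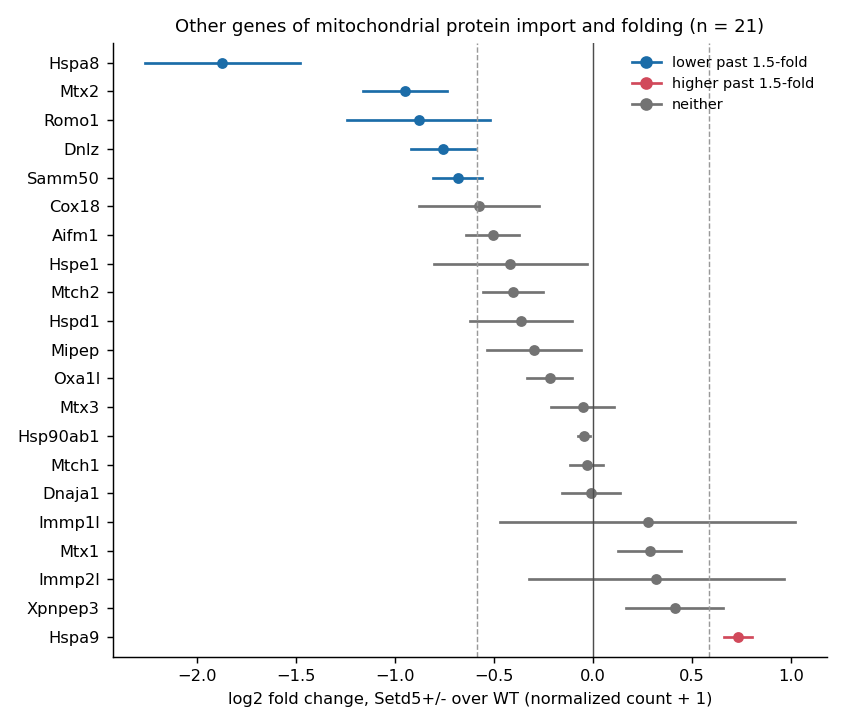
Log2 fold change of Setd5+/- over WT (x axis) with 95% counting intervals for the 21 other genes of mitochondrial protein import and folding, 1 library per genotype; dashed lines mark 1.5-fold. Hspa9 alone lies past the upper dashed line, at 0.73, and 5 genes from Samm50 at −0.68 to Hspa8 at −1.87 lie past the lower one.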

How the data were processed

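RNA-seq of the 3 samples labelled WT and the 3 labelled Setd5+/- was analysed. The authors trimmed reads with Trimmomatic, aligned them to mm10 with Bowtie2 and deposited, for each gene and sample, counts divided by DESeq2 size factors (normalized counts), with a mean over all samples. The counting program and its use of strand are not given in the sources used here. The authors' own fold changes and p-values in that table were not used.

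Many deposited values had lost their decimal point. Points were placed where a value became a whole number of reads, the deposited mean settling 1116 genes, and all 52438 restored means equalled the deposited ones. Since samples of a genotype were parts of 1 library, their means were compared with no test. The 95% intervals used a variance of 1.94 times the mean, since both ends of a pair were counted. Genes averaging under 10 normalized counts were not tested, the pseudocount was 1 and the fold threshold 1.5. limma 3.58.1 in R 4.3.3, treating labelled samples as replicates, was an alternative only. Gene models were GENCODE M21, and copies of the members were sought with blastn 2.17.0 at 90% identity or more over 200 bases or more. Members, lists, motifs and thresholds were chosen with earlier results of these data known. Values per sample are given for members past 1.5-fold, for the pairs, and for Tomm20 and Timm23, and for the other pathway genes past 1.5-fold; Gm45799, Gm21981 and other neighbours and copies were named after their values were seen.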

Additional observations from a re-analysis of the deposited data

How the results depend on the processing

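With 1 library per genotype, nothing here measures how cultures or clones of 1 genotype differ, and the depth limits mainly Timm23, Pam16, Tomm5 and the 3 genes under the filter. Beside these limits, 134 of 147 alternative values of the counts, medians, Setd5 and pair shares, and 215 of 216 of the single genes named, stayed within 1.5 times the count or the import median, within 0.1 of the median of all genes, or within the counting error of the gene or share. At a threshold of 2-fold, 3 import genes were lower, with 998 of all genes lower and 1668 higher. With limma on the labelled samples as replicates, which compares the reads of 2 libraries, an adjusted p (Benjamini-Hochberg) under 0.05 without a fold threshold was reached by 19 import genes lower and 1 higher, and by 5028 of all genes lower and 4935 higher. With the replicate number as a block these were 19, 1, 5012 and 4934. The numbers pair nothing: deviations of same-numbered samples correlated at 0.005, 0.002 and −0.007. Leaving out 1 sample at a time gave 8 to 9 import genes lower and 0 higher, medians of −0.25 to −0.23, 2353 to 2380 of all genes lower and 3009 to 3052 higher, −0.42 to −0.34 for Setd5, and 99.4% to 100% for the Timm8b share in Setd5+/-, where Timm8a1 has 2 reads. With Gm7180 added, Timm17a was at 0.26. Scaled to total reads, 10 import genes were lower past 1.5-fold, Timm13 joining, and Tomm5 changed sign, as it did with the upper quartile. With chromosome 1 left out of the scaling, Dnajc19, Pmpcb and Timmdc1 changed sign. Under these 3 scalings the import median was −0.29 to −0.22. Without overlapping members it was −0.15, and the cause was not tested. Adding the reads of copies and leaving out Tomm6os, overlapping members or Fabp7 were alternatives chosen after seeing the data.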
